A study of Mus musculus with 12 samples.

Results

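Uroplakins are the membrane proteins of the urothelial plaque, the rigid patches of apical membrane that line the bladder and much of the urinary tract. UPK1A and UPK1B are tetraspanins, proteins that cross the membrane several times and are anchored there, while UPK2, UPK3A and UPK3B cross it once and leave the endoplasmic reticulum only after pairing with a tetraspanin. UPK1A pairs with UPK2, and UPK1B pairs with UPK3A or UPK3B. The prostate arises from the urogenital sinus, the same embryonic tube that gives rise to the bladder outlet and urethra, and its ducts open into a urethra lined by urothelium.

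The 5 uroplakin genes Upk1a, Upk1b, Upk2, Upk3a and Upk3b are described here, out of 22180 genes with at least 1 probe set named for a single gene on the array used. They were taken by name. Each of the 5 had 1 such probe set, so a probe set chosen by brightness was never needed. The family was picked out with earlier results on these arrays known, among them the high luminal signal of Upk1a, so its values below describe these arrays and its p-values are not independent support.

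RNA was measured on 12 arrays in 6 groups of 2 arrays. All cells came from wild-type, hormone-naïve male mice whose age the labels do not give, and all were sorted as negative for the lineage markers CD45, CD31 and Ter119, which mark leukocytes, endothelium and red cells. The Sca1-high gate (high Sca1, positive for CD49f, an integrin subunit of basal cells) was sorted from mice 1 and 5. The basal gate (intermediate Sca1, positive for CD49f) came from mice 3 and 5, and the luminal gate (low for both) came from mice 4 and 5. Each gate of each mouse was divided into LY6D+ and LY6D- cells by a surface protein of the Ly6 family, so both arrays of a gate and mouse share an animal, and mouse 5 contributed to every group. The question set by this design is how the transcriptomes of the gates differ and whether LY6D divides a gate further.

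Array medians lay between 3.76 and 3.99 on the log2 scale, and arrays of a group correlated at 0.817 to 0.903. The luminal markers averaged 6.85 to 8.38 over the Sca1-high arrays, 7.14 to 8.31 over the basal arrays and 8.71 to 9.29 over the luminal arrays, and the basal markers averaged 6.70 to 7.86, 7.89 to 9.36 and 5.42 to 7.66 in the same gates. Of the genes behind the gates, Ly6a (Sca1) was not analysed here because no probe set named it alone, and the same held for the basal marker Krt5. Itga6 (CD49f) differed from luminal cells by 0.50 ± 0.46 in Sca1-high and 1.98 ± 0.46 in basal cells (SE, limma, adjusted p = 0.792 and 0.15). Signal of cell types that the lineage gate should remove was present, and its values stand beside the results it moves with. Ptprc (CD45) differed from luminal cells by -2.26 ± 0.71 in Sca1-high and -3.03 ± 0.71 in basal cells (SE, limma, adjusted p = 0.406 and 0.149). Pecam1 (CD31) differed by 3.25 ± 0.58 and 2.24 ± 0.58 (adjusted p = 0.113 and 0.199). The Ly6d transcript was higher in the LY6D+ array than in its LY6D- partner in 3 of 6 pairs. The labels of this split were thus not matched by their own transcript in every mouse. The widest gap of Ly6d the other way was in Sca1-high cells of mouse 5, at 4.70 in the LY6D+ array and 7.37 in the LY6D- array. Of the arrays of mouse 5, 3 (both basal arrays and the LY6D- luminal array) stood apart on the first principal component, at 32.9 to 73.1, where all others lay between -46.1 and 18.5.

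Upk1a is the member that the gates set apart, so the 250 bases before its annotated start are shown with those of Upk3a and Upk3b, the other members for which RefSeq promoter sequence (GRCm38.p6) was at hand. Upk1a lies on the minus strand at chr7:30612735-30612984, Upk3a on the plus strand at chr15:85016891-85017140 and Upk3b on the plus strand at chr5:136038246-136038495. Capitals mark the letters TATATA, which form the core promoter element that positions RNA polymerase II.
Upk1a: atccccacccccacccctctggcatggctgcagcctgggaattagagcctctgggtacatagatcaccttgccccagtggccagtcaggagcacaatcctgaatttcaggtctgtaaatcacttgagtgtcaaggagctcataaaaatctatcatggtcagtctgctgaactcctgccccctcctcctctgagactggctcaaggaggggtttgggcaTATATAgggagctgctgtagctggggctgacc
Upk3a: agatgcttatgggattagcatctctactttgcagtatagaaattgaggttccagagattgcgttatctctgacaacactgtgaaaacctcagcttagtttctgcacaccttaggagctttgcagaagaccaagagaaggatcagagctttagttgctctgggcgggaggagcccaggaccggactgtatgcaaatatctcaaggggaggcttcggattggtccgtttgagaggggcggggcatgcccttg
Upk3b: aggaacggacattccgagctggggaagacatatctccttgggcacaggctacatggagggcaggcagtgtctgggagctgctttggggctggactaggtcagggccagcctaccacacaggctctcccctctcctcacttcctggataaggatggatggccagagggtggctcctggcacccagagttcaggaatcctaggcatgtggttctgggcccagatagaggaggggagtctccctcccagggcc
TATATA occurred in the Upk1a window from -32 to -27 relative to the start, and in neither other window. Among 27025 mouse promoters of this length, 5.56% held it. Upk1a also held CACCC, the core letters bound by KLF factors, at 2 places that did not overlap. At least 1 match to CACCC on either strand was present in 51.3% of all promoters. AGATAA, bound by GATA factors, was found once in the Upk3a window on the minus strand and occurs in 10.3% of promoters. AGGAAG (ETS factors, 29.2% of promoters) and AGGTCA (nuclear receptors, 13.8%) were each found once in the Upk3b window, which also held CACCC at 2 places. TGTTTA (FOX factors) and AACNGGTT (GRHL factors) were not found in these 3 windows on either strand. These were the 7 motifs searched, and a match describes letters only; binding was not tested.

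Upk1a, the tetraspanin partner of UPK2 and the uroplakin to which the FimH adhesin of uropathogenic bacteria binds, was high in luminal cells and low in the other gates. Its log2 signal in Sca1-high cells was 5.77 (mouse 1) and 4.24 (mouse 5) in the LY6D+ arrays and 4.64 and 5.46 in the LY6D- arrays of the same mice. In basal cells it was 6.43 (mouse 3) and 4.83 (mouse 5) in LY6D+ and 4.81 and 5.48 in LY6D- arrays. In luminal cells it was 9.57 (mouse 4) and 9.36 (mouse 5) in LY6D+ and 9.30 and 9.16 in LY6D- arrays. All 4 luminal arrays thus lay above all 8 others, whose highest was the LY6D+ basal array of mouse 3, while Sca1-high and basal arrays overlapped.

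**Figure D1:**
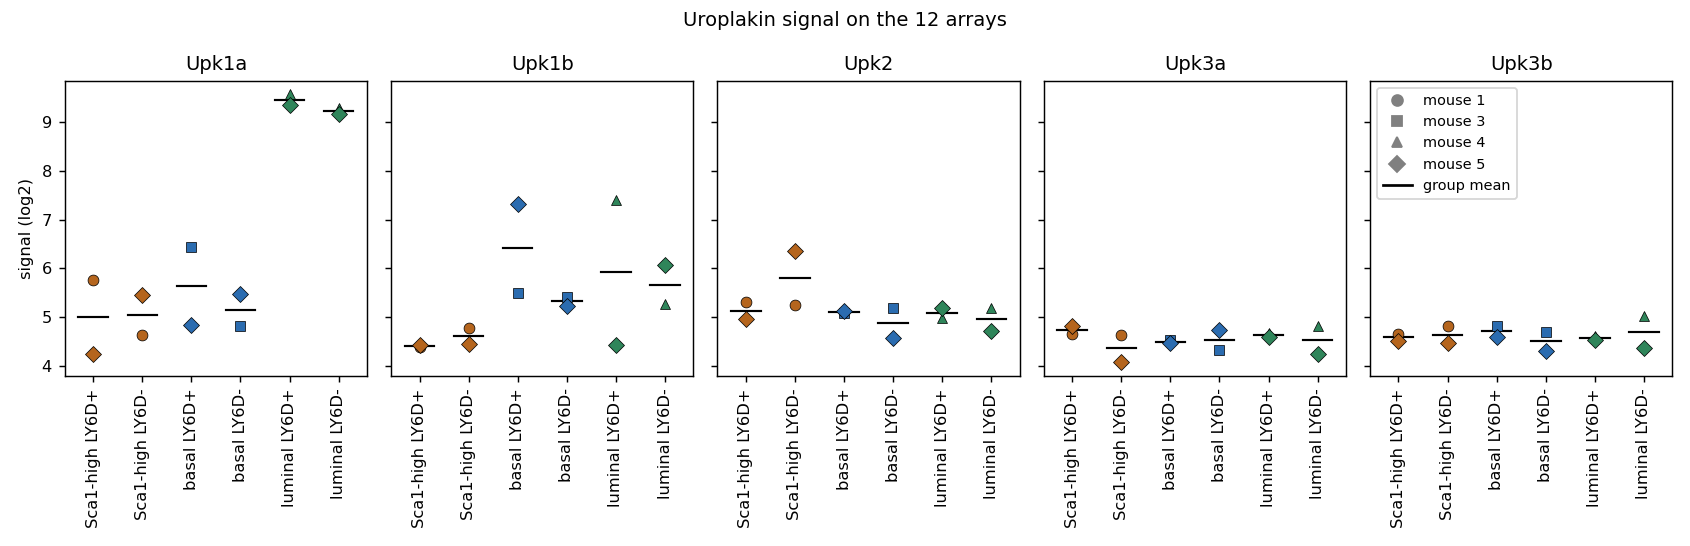
Log2 signal of the 5 uroplakins (vertical axis, shared by the panels) on each of the 12 arrays, by group. Symbols mark the mouse and lines the mean of each group of 2 arrays. Upk1a lies between 9.16 and 9.57 on the luminal arrays and between 4.24 and 6.43 on the others, while no other member separates the luminal arrays.

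Upk1a averaged 5.03 ± 0.71 in Sca1-high cells and 9.35 ± 0.17 in luminal cells (SD, n = 4 arrays of 2 mice each), a difference of -4.32 ± 0.43 (SE, 95% interval -5.29 to -3.35), which is 19.9-fold lower in Sca1-high cells. It averaged 5.39 ± 0.76 in basal cells, a difference from luminal cells of -3.96 ± 0.43 (95% interval -4.93 to -2.99), or 15.5-fold lower in basal cells. With limma fitted over 20135 genes, the adjusted p was 0.00933 for Sca1-high and 0.0117 for basal cells. By size of difference either way, Upk1a ranked 9 of all genes tested between Sca1-high and luminal cells and 33 between basal and luminal cells. Between Sca1-high and basal cells the difference was -0.36 ± 0.43 (95% interval -1.33 to 0.61, adjusted p = 0.767).

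Of the 5 uroplakins, 1 was called lower in Sca1-high than in luminal cells at an adjusted p under 0.05 and none higher, where 0.0993% of all genes were called lower and 0.139% either way. Between basal and luminal cells 1 of 5 was again lower and none higher, where 0.278% of all genes were called lower and 0.417% either way. The member was Upk1a both times, and these comparisons share the luminal arrays. Between Sca1-high and basal cells limma called 0 of 5 uroplakins and 0.00993% of all genes, and 0 of 5 uroplakins and 9.83% of all genes had an unadjusted p under 0.05. The arrays did not overlap with the luminal ones in the same direction for 2.48% of genes in Sca1-high and 3.17% in basal cells. Over the 5 uroplakins the median difference was -0.04 between Sca1-high and luminal cells (0.075 over all genes) and -0.03 between basal and luminal cells (-0.027 over all genes).

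The calls for Upk1a depended on the treatment of the shared animals and on the arrays kept. Over all 26 alternatives the difference stayed between -4.70 and -3.94 in Sca1-high and between -4.36 and -3.56 in basal cells. With mouse as a fixed block, which pairs arrays of the same animal, the difference was -4.41 ± 0.68 (adjusted p = 0.0655) between Sca1-high and luminal cells and -4.10 ± 0.68 (adjusted p = 0.0683) between basal and luminal cells. No other mouse gave cells of different gates, so the fixed block takes the gate differences from mouse 5, which gave every gate. A fit of mouse 5 alone therefore has the same differences, -4.41 and -4.10, by construction (adjusted p = 0.0665 and 0.0568). Over the 3 other mice the differences were -4.23 and -3.82 (adjusted p = 0.203 and 0.0889). Without the 3 arrays of mouse 5 that stood apart, the Sca1-high difference was -4.31 (adjusted p = 0.0359) and the basal difference -3.72 (adjusted p = 0.126). A random block kept both calls, as did averaging the arrays of a gate and mouse (limma, adjusted p = 0.0174 in Sca1-high and 0.0188 in basal cells).

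**Figure D2:**
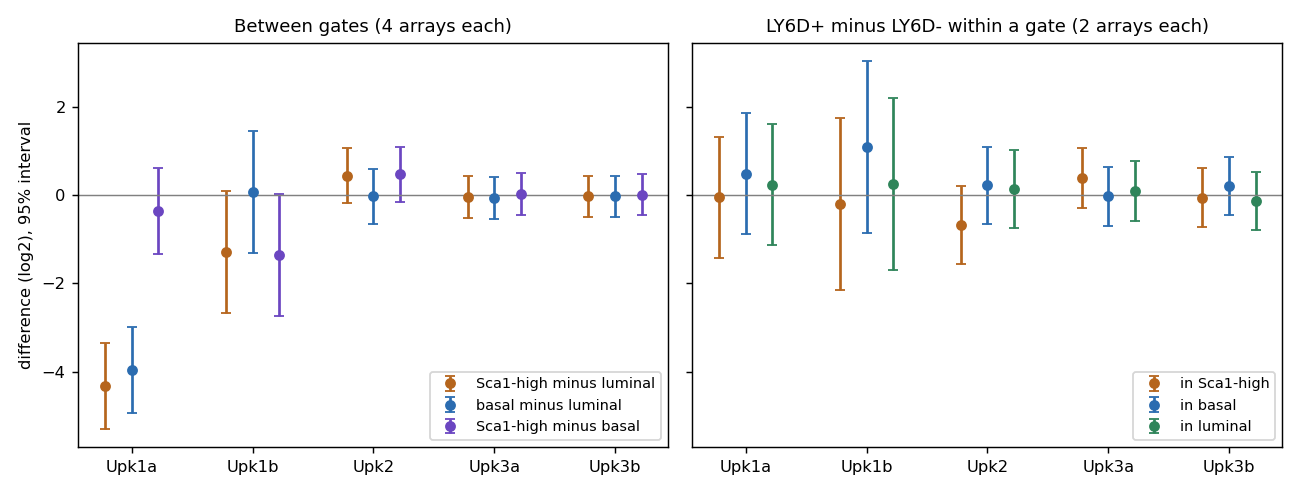
Differences of log2 signal for each uroplakin from the limma fit, with 95% intervals, between gates (left, 4 arrays each) and between LY6D+ and LY6D- cells of a gate (right, 2 arrays each). Only the Upk1a intervals against luminal cells lie apart from 0, at -5.29 to -3.35 for Sca1-high and -4.93 to -2.99 for basal cells.

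Upk1a held its luminal level in both LY6D classes. LY6D+ basal cells were lower than LY6D+ luminal cells by a difference of -3.83 ± 0.61 (adjusted p = 0.118), and LY6D- basal cells than LY6D- luminal cells by -4.08 ± 0.61 (adjusted p = 0.0717), with 2 arrays a group. Neither passed the threshold in limma, which called 0.0298% and 0.0596% of all genes there. Leaving out either LY6D+ Sca1-high array, which enters only the shared estimate of spread, brought the adjusted p of the LY6D- comparison to 0.0466. In both of these comparisons 1 of the 5 uroplakins, Upk1a, had an unadjusted p under 0.05, as did 5.65% of all genes in the LY6D+ and 6.88% in the LY6D- comparison. The order of the groups for Upk1a was luminal LY6D+ (9.46), luminal LY6D- (9.23), basal LY6D+ (5.63), basal LY6D- (5.15), Sca1-high LY6D- (5.05) and Sca1-high LY6D+ (5.00). The 2 luminal groups did not overlap but differed by 0.23 ± 0.61, well inside the error, and neighbours among the last 4 overlapped. The luminal classes were less alike in 7 basal markers, whose mean was 7.48 and 7.66 on LY6D+ and 5.42 and 5.85 on LY6D- arrays (mice 4 and 5). Limma called 0 of these 7, and 3 had an unadjusted p under 0.05 (3.56% of all genes).

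Markers of myeloid cells, of seminal vesicle secretion and of luminal prostate cells had their highest means on the luminal arrays, as Upk1a did. For the counts at an unadjusted p under 0.05 given here and for the lists below, the share over all genes was 8.41% between Sca1-high and luminal cells, 9.44% between basal and luminal cells and 9.83% between Sca1-high and basal cells. The mean log2 signal of 8 myeloid markers, which leukocytes express and which a CD45-negative sort should deplete, was 4.78 to 6.03 on Sca1-high, 4.07 to 4.81 on basal and 6.65 to 8.13 on luminal arrays. All 8 passed the filter on dim genes, and of these limma called 4 lower in basal than in luminal cells (Cd68, Adgre1, Mrc1 and Ctss) and 0 lower in Sca1-high than in luminal cells, where 6 of 8 had an unadjusted p under 0.05 (8.41% of all genes). Cd68, a lysosomal glycoprotein of macrophages, averaged 7.07 ± 1.66 in Sca1-high, 6.20 ± 0.73 in basal and 10.45 ± 0.06 in luminal cells (SD, n = 4), a basal difference of -4.26 ± 0.68 (adjusted p = 0.0403). This list was not uniform either: 1 of 8, C1qa, had a positive difference between Sca1-high and luminal cells (0.12 ± 0.28), and 0 of 8 did between basal and luminal cells. The mean of the list separated the luminal arrays, at 6.65 or more against 6.03 or less. Upk1a separated them at 9.16 or more against 6.43 or less.

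Secretory genes did so too, by their mean. The mean of 5 seminal vesicle markers was 8.95 to 11.15 on Sca1-high, 7.41 to 11.26 on basal and 11.81 to 12.22 on luminal arrays. Svs2, a protein of the seminal coagulum, averaged 11.76 ± 0.29 in Sca1-high, 10.83 ± 0.90 in basal and 12.63 ± 0.20 in luminal cells (SD, n = 4). None of these 5 was called between gates, while all 5 had an unadjusted p under 0.05 between basal and luminal cells (9.44% of all genes) and 3 did between Sca1-high and luminal cells (8.41%). Of 7 luminal prostate markers, limma called 1 lower in basal cells, Dpp4, a surface peptidase, at 3.38 ± 0.26 in basal and 5.59 ± 0.72 in luminal cells (SD, n = 4), a difference of -2.22 ± 0.33 (adjusted p = 0.0336). The luminal prostate list was not uniform: all 7 had a negative difference between Sca1-high and luminal cells, but 1 of 7, Krt18, had a positive one between basal and luminal cells (0.30 ± 0.89). The part of these markers in the luminal level of Upk1a was not tested. In RNA from sorted populations, fewer cells of a type and less RNA per cell cannot be told apart.

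**Figure D3:**
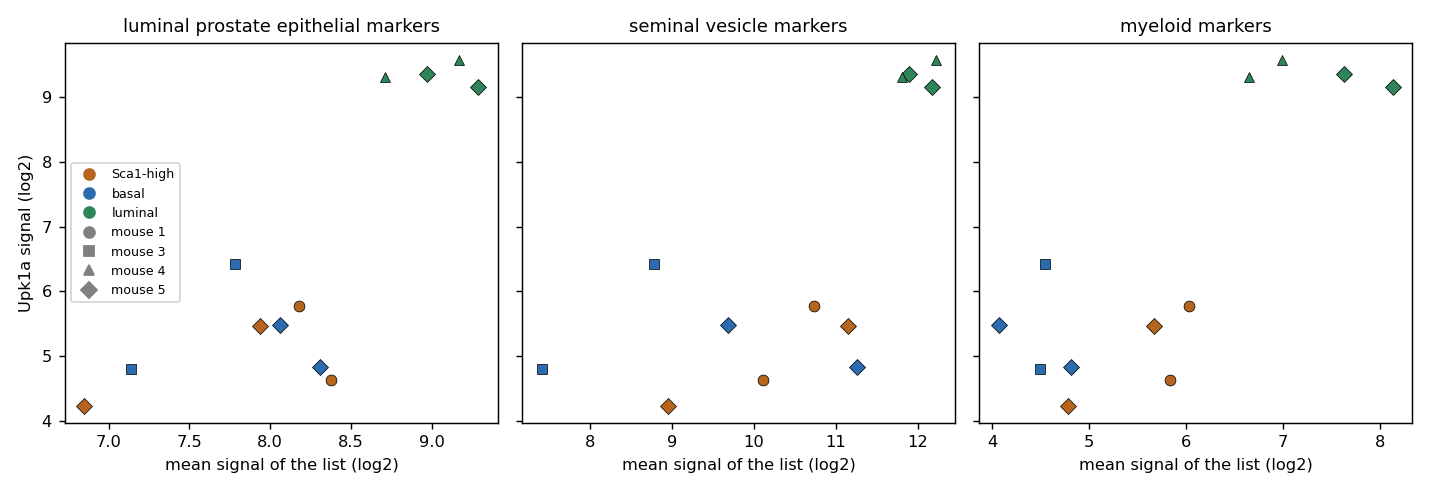
Log2 signal of Upk1a (vertical axis) on each of the 12 arrays beside the mean log2 signal of the luminal prostate, seminal vesicle and myeloid marker lists (horizontal axes). Colours mark the gate and symbols the mouse. In all 3 panels the luminal arrays lie to the right of the others, with myeloid means of 6.65 to 8.13 against 4.07 to 6.03.

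On Sca1-high arrays, from the lowest to the highest Upk1a signal (4.24, 4.64, 5.46 and 5.77), the seminal vesicle means were 8.95, 10.11, 11.15 and 10.74 and the myeloid means 4.78, 5.83, 5.67 and 6.03. Within the basal gate, the array with the highest Upk1a signal (6.43, LY6D+ of mouse 3) had a myeloid mean of 4.55 and a seminal vesicle mean of 8.78, and the array with the highest seminal vesicle mean (11.26, LY6D+ of mouse 5) had an Upk1a signal of 4.83. With 4 arrays a gate, no relation within a gate was tested.

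The genes whose values over the 12 arrays were most like those of Upk1a were Tspan1 (Pearson r = 0.95), which encodes a membrane protein, Mxi1 (0.93), a MYC antagonist of the MAX network, Cd86 (0.92), a T-cell costimulatory ligand of antigen-presenting cells, Cd68 (0.92) and the predicted gene Gm20016 (0.91). These coefficients describe arrays that share mice and gates. Tspan1 had log2 signals of 4.30 and 3.73 in LY6D+ and 4.72 and 4.58 in LY6D- Sca1-high arrays (mice 1 and 5), 4.73 and 4.66 in LY6D+ and 3.26 and 4.14 in LY6D- basal arrays (mice 3 and 5), and 7.44 and 7.11 in LY6D+ and 7.41 and 8.14 in LY6D- luminal arrays (mice 4 and 5). As with Upk1a, the 4 luminal arrays lay above all others. Its differences from luminal cells were -3.19 ± 0.26 in Sca1-high (adjusted p = 0.00366) and -3.33 ± 0.26 in basal cells (adjusted p = 0.0038). Mxi1, Cd86 and Gm20016 were called in both comparisons as well, and Cd68 in the basal one. All 5 genes were chosen for their likeness to Upk1a on these arrays. A luminal step and such calls follow from that choice and are not separate support.

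Upk1b, the other tetraspanin and the partner of UPK3A and UPK3B, was low and even in Sca1-high cells and varied widely in the other gates. Its log2 signal in Sca1-high cells was 4.39 (mouse 1) and 4.43 (mouse 5) in LY6D+ and 4.78 and 4.45 in LY6D- arrays. In basal cells it was 5.49 (mouse 3) and 7.33 (mouse 5) in LY6D+ and 5.42 and 5.22 in LY6D- arrays. In luminal cells it was 7.41 (mouse 4) and 4.42 (mouse 5) in LY6D+ and 5.26 and 6.07 in LY6D- arrays. The highest signals came from 1 LY6D+ array each of the basal and luminal gates, in different mice, and the luminal LY6D+ array of mouse 5 was as low as the Sca1-high arrays.

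Upk1b averaged 4.52 ± 0.18 in Sca1-high, 5.87 ± 0.98 in basal and 5.79 ± 1.27 in luminal cells (SD, n = 4). All 4 Sca1-high arrays lay below all 4 basal arrays, as was so for 2.26% of all genes, with a difference of -1.35 ± 0.61 (95% interval -2.73 to 0.03). The interval only just included 0, and limma did not call the difference (unadjusted p = 0.054, adjusted p = 0.511). Sca1-high and luminal arrays overlapped (difference -1.28 ± 0.61, adjusted p = 0.619), as did basal and luminal arrays (0.07 ± 0.61, adjusted p = 0.996). The order of the groups was basal LY6D+ (6.41), luminal LY6D+ (5.92), luminal LY6D- (5.66), basal LY6D- (5.32), Sca1-high LY6D- (4.62) and Sca1-high LY6D+ (4.41). Neighbours overlapped except basal LY6D- with Sca1-high LY6D-, and Sca1-high LY6D- with Sca1-high LY6D+. The spread within groups of 2 was 1.05 for Upk1b, larger than for 94.5% of genes, and its spread over all 12 arrays was 1.07, so the groups added little to it.

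The basal marker list was set beside Upk1b by array, and no relation was tested. Its mean was 8.82 and 9.36 on the LY6D+ basal arrays of mice 3 and 5, where Upk1b was 5.49 and 7.33. On the LY6D- basal arrays of these mice the list was at 7.89 and 9.19 and Upk1b at 5.42 and 5.22. On the LY6D+ luminal arrays of mice 4 and 5 the list was at 7.48 and 7.66 and Upk1b at 7.41 and 4.42. The LY6D- luminal arrays of these mice had list means of 5.42 and 5.85, with Upk1b at 5.26 and 6.07. Sca1-high arrays had list means of 6.70 to 7.86, with Upk1b at 4.39 to 4.78. The genes most like Upk1b over the 12 arrays were Hsd17b12 (r = 0.90), an enzyme of fatty acid elongation, Oasl2 (0.88), an interferon-induced gene, and Glyr1 (0.87), a nucleosome-binding protein. None of the 3 was called between Sca1-high or basal cells and luminal cells.

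Upk2, the single-pass partner of UPK1A, did not share the luminal level of Upk1a. Its log2 signal in Sca1-high cells was 5.31 (mouse 1) and 4.95 (mouse 5) in LY6D+ and 5.24 and 6.36 in LY6D- arrays. In basal cells it was 5.09 (mouse 3) and 5.12 (mouse 5) in LY6D+ and 5.19 and 4.57 in LY6D- arrays. In luminal cells it was 4.99 (mouse 4) and 5.19 (mouse 5) in LY6D+ and 5.19 and 4.71 in LY6D- arrays. Signals lay between 4.57 and 5.31 except on the LY6D- Sca1-high array of mouse 5.

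The means of Upk2 were 5.46 ± 0.61 in Sca1-high, 4.99 ± 0.29 in basal and 5.02 ± 0.23 in luminal cells (SD, n = 4). The difference from luminal cells was 0.44 ± 0.28 in Sca1-high (95% interval -0.18 to 1.07, adjusted p = 0.698) and -0.03 ± 0.28 in basal cells (95% interval -0.65 to 0.60, adjusted p = 0.998). Neither interval reaches the size of the Upk1a difference. From basal cells the Sca1-high difference was 0.47 ± 0.28 (adjusted p = 0.571). Over the 12 arrays Upk2 correlated with Upk1a at -0.19, and all 6 groups overlapped with their neighbours in order. Sca1-high LY6D- came first at 5.80 and basal LY6D- last at 4.88. Dclk2 (r = 0.96), a kinase of the doublecortin family, Sh3rf2 (0.94), an SH3 and RING domain protein, and Adgrg4 (0.93), an adhesion G protein-coupled receptor, were most like it. Each of these 3 genes had a difference of 0.37 between Sca1-high and luminal cells, none of them called.

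Upk3a and Upk3b, the single-pass partners of UPK1B, were flat. UPK3B is also known as a marker of mesothelium. Upk3a ranged from 4.07 to 4.81 in Sca1-high, 4.32 to 4.74 in basal and 4.24 to 4.81 in luminal cells, with means of 4.54 ± 0.33, 4.51 ± 0.17 and 4.58 ± 0.24 (SD, n = 4). Upk3b ranged from 4.46 to 4.81 in Sca1-high, 4.30 to 4.82 in basal and 4.37 to 5.03 in luminal cells, with means of 4.61 ± 0.16, 4.60 ± 0.22 and 4.63 ± 0.28 (SD, n = 4). For both genes the gates overlapped throughout.

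The Upk3a differences were -0.04 ± 0.21 between Sca1-high and luminal cells (95% interval -0.51 to 0.44), -0.07 ± 0.21 between basal and luminal cells (-0.55 to 0.41) and 0.03 ± 0.21 between Sca1-high and basal cells. The Upk3b differences were -0.03 ± 0.21 (-0.49 to 0.44), -0.03 ± 0.21 (-0.50 to 0.44) and 0.01 ± 0.21 in the same comparisons, with adjusted p of at least 0.962 for both genes in limma. The order of the 6 groups had no neighbours that were apart. Upk3a was highest in Sca1-high LY6D+ cells (4.73) and lowest in Sca1-high LY6D- cells (4.35), and Upk3b was highest in luminal LY6D- (4.70) and lowest in basal LY6D- cells (4.50). Pdgfrb (r = 0.91), a receptor of pericytes and fibroblasts, was most like Upk3a, followed by Ccdc120 (0.87) and 4930480G23Rik (0.86). Cacna1i (0.97), a calcium channel subunit, was most like Upk3b, followed by Kcng1 (0.95), a potassium channel subunit, and Efcab5 (0.95). These patterns lie within spreads of 0.23 and 0.20.

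The members differed in how much they varied over the 12 arrays. The standard deviation of log2 signal was 2.12 for Upk1a, larger than for 99.5% of genes tested, 1.07 for Upk1b (93.9%), 0.44 for Upk2 (65.6%), 0.23 for Upk3a (12.9%) and 0.20 for Upk3b (6.59%), where the median gene had 0.35. Within groups of 2 arrays Upk1a had a spread of 0.71, so most of its variation lay between gates. All 5 members exceeded the median of the table (3.90) on all 12 arrays and passed the filter on dim genes. No detection p was used, and whether Upk2, Upk3a and Upk3b exceeded the array background was not tested. The same holds for Upk1a outside the luminal gate (4.24 to 6.43) and for Upk1b in Sca1-high cells (4.39 to 4.78). Whether background limits the size of their differences was not tested either.

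For pairs of members that assemble together, Upk1a and Upk2 correlated at -0.19 over the 12 arrays, Upk1b and Upk3a at -0.07, and Upk1b and Upk3b at -0.02. The spreads of Upk2, Upk3a and Upk3b over the 12 arrays were 0.44, 0.23 and 0.20, against 0.41, 0.27 and 0.26 within groups. With so little variation between groups, these coefficients cannot tell whether the pairs vary together. The lowest coefficient among the members was -0.54, between Upk2 and Upk3a, and the highest 0.31, between Upk3a and Upk3b. The related gene Upk3bl, no member here, had means of 4.49 ± 0.16 in Sca1-high, 4.33 ± 0.37 in basal and 4.19 ± 0.22 in luminal cells (SD, n = 4), and correlated with Upk3b at 0.70.

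LY6D+ and LY6D- cells of a gate did not differ in any uroplakin beyond the error. For Upk1a the difference between the LY6D+ and LY6D- arrays of a mouse was 1.13 (mouse 1) and -1.22 (mouse 5) in Sca1-high, 1.62 (mouse 3) and -0.65 (mouse 5) in basal and 0.27 (mouse 4) and 0.20 (mouse 5) in luminal cells. The mice thus disagreed in sign in the Sca1-high and basal gates and were close in the luminal gate. The fitted differences were -0.05 ± 0.61, 0.48 ± 0.61 and 0.23 ± 0.61 in the same gates, each with an adjusted p of 1. For Upk1b the difference within a mouse was -0.39 and -0.02 in Sca1-high, 0.07 and 2.11 in basal and 2.15 and -1.65 in luminal cells, with fitted differences of -0.21 ± 0.87, 1.09 ± 0.87 and 0.25 ± 0.87. The luminal mice went opposite ways for Upk1b.

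**Figure D4:**
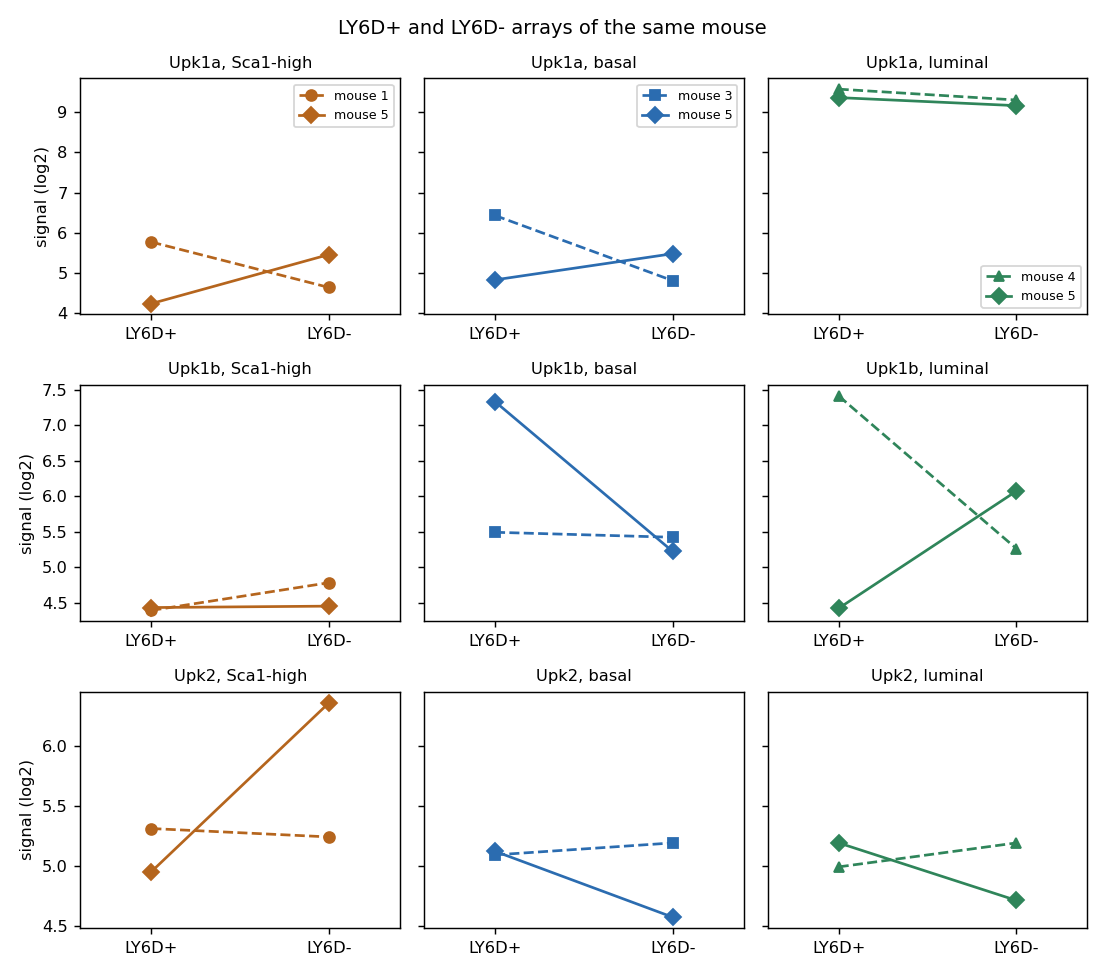
Log2 signal (vertical axes, scaled per gene) of Upk1a, Upk1b and Upk2 in the LY6D+ and LY6D- arrays of each mouse, by gate. Lines join arrays of the same mouse. Upk1a lines cross in Sca1-high and basal cells, Upk1b lines cross in all 3 gates, and the widest Upk2 step is the one of -1.41 in Sca1-high cells of mouse 5.

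For Upk2 the fitted LY6D difference was -0.67 ± 0.39 in Sca1-high, 0.22 ± 0.39 in basal and 0.14 ± 0.39 in luminal cells, and the Sca1-high value rested on mouse 5 (-1.41) rather than mouse 1 (0.07). That mouse's Sca1-high pair is the one whose Ly6d transcript ran furthest against its labels. For Upk3a the fitted differences were 0.38 ± 0.30, -0.03 ± 0.30 and 0.10 ± 0.30, and for Upk3b -0.06 ± 0.29, 0.20 ± 0.29 and -0.13 ± 0.29, in the same order of gates. Limma called 0 of 5 uroplakins by LY6D in each gate and over the 3 gates, with 0 at an unadjusted p under 0.05. Among all genes it called 0% in Sca1-high, 0.00993% in basal and 0% in luminal cells and 0% over the gates, where 2.41%, 2.20%, 3.56% and 2.62% had an unadjusted p under 0.05. No uroplakin was called in the tests of whether the LY6D difference differed between gates. The widest of those for Upk1b, Sca1-high against basal cells, was -1.30 ± 1.23 (adjusted p = 1).

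Genes that act with uroplakins in the urothelium were not called between gates. Of 8 genes of uroplakin transport and fusiform vesicles, limma called 0 in each comparison of 2 gates, with 1 at an unadjusted p under 0.05 between Sca1-high and luminal cells (8.41% of all genes) and 0 in the other comparisons of gates (9.44% and 9.83%). Their mean was 4.21 to 4.81 on Sca1-high, 4.61 to 4.84 on basal and 4.39 to 4.73 on luminal arrays. Snx31, a sorting nexin that binds uroplakins, averaged 4.96 ± 0.32, 4.77 ± 0.26 and 4.62 ± 0.21 in Sca1-high, basal and luminal cells, and Mal, a lipid raft protein of apical transport, averaged 4.60 ± 0.38, 4.96 ± 0.87 and 4.88 ± 0.19 (SD, n = 4). Neither gene had the luminal step of Upk1a.

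Of 8 urothelial transcription factors 0 were called between gates, with 2 at an unadjusted p under 0.05 between Sca1-high and luminal cells, 3 between basal and luminal cells and 3 between Sca1-high and basal cells (8.41%, 9.44% and 9.83% of all genes). Gata3, a zinc finger factor of urothelium and luminal epithelium, averaged 5.39 ± 0.47 in Sca1-high, 5.58 ± 0.53 in basal and 6.44 ± 0.26 in luminal cells (SD, n = 4), with differences from luminal cells of -1.04 ± 0.33 (adjusted p = 0.412) and -0.85 ± 0.33 (adjusted p = 0.433). Foxa1, a pioneer factor of endodermal epithelia, averaged 6.49 ± 1.58, 8.09 ± 0.43 and 6.54 ± 0.57, and Klf5, a factor of proliferating epithelia, 9.40 ± 0.99, 10.74 ± 0.50 and 9.67 ± 0.21 in the same gates. For Foxa1 and Klf5 the basal mean was the highest.

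The other urothelial markers ran the opposite way to Upk1a in sign, without a call. All 7 tested had a positive difference in Sca1-high and in basal cells from luminal cells, with medians of 0.48 and 0.59 (both comparisons share the luminal arrays), where 59.8% and 45.8% of all genes were positive. Limma called 0 of 7 in both, with 1 and 3 at an unadjusted p under 0.05 (8.41% and 9.44% of all genes). Krt7, a keratin of simple epithelium and urothelium, averaged 5.77 ± 0.95 in Sca1-high, 5.86 ± 0.57 in basal and 4.72 ± 0.36 in luminal cells (SD, n = 4). Psca, a surface antigen of prostate and urothelium, averaged 7.15 ± 3.03, 5.03 ± 1.36 and 3.89 ± 0.15, with a Sca1-high difference from luminal cells of 3.26 ± 1.32 (adjusted p = 0.561). On the luminal arrays, where Upk1a was high, this list had its lowest mean, at 3.81 to 4.08 against 4.25 to 5.65 on Sca1-high and 4.36 to 4.98 on basal arrays.

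Of 7 mesothelial markers, listed because Upk3b marks mesothelium, 0 were called between gates, with 1, 0 and 1 at an unadjusted p under 0.05 for Sca1-high against luminal, basal against luminal and Sca1-high against basal cells (8.41%, 9.44% and 9.83% of all genes). Their mean was 4.52 to 4.78, 4.32 to 4.77 and 4.38 to 4.69 on Sca1-high, basal and luminal arrays, and differences between Sca1-high and luminal cells had either sign, at 0.72 ± 0.19 for Wt1 and -0.89 ± 0.47 for Krt19, neither called. Of 5 proximal luminal markers 0 were called between gates, with 3, 2 and 1 at an unadjusted p under 0.05 in the same comparisons (8.41%, 9.44% and 9.83% of all genes). Between Sca1-high and luminal cells 4 of 5 had a positive difference (59.8% of all genes), and Clu had a negative one (-0.94 ± 0.25). Between basal and luminal cells 3 of 5 were positive (45.8% of all genes). Psca and Krt7 are in this list and among the other urothelial markers, so the lists are not separate. Endothelial markers, which the CD31 gate should deplete, averaged 5.78 to 7.65 on Sca1-high, 4.23 to 7.19 on basal and 4.13 to 4.71 on luminal arrays. In the basal gate they were split by LY6D, at 4.23 to 4.76 on LY6D+ and 7.04 to 7.19 on LY6D- arrays, with 0 of 8 differences between LY6D+ and LY6D- positive (median -2.44), 0 called and 6 at an unadjusted p under 0.05 (2.20% of all genes). Upk1a was at 6.43 and 4.83 on those LY6D+ and at 4.81 and 5.48 on those LY6D- arrays. Between Sca1-high and luminal cells limma called 1 of these 8, where 0.139% of all genes were called. Emcn, a sialomucin of venous endothelium, was higher in Sca1-high cells at 10.33 ± 1.07 against 4.64 ± 1.05 in luminal cells (SD, n = 4, difference 5.69 ± 0.66, adjusted p = 0.0203). In all, 5 of 8 had an unadjusted p under 0.05 (8.41% of all genes). The list was not uniform: 7 of 8 differences were positive (59.8% of all genes), and Cldn5 (-0.01 ± 0.27) and Vwf (0.08 ± 0.34) barely differed. Of 7 basal markers limma called 1 between basal and luminal cells, where 0.417% of all genes were called. Col17a1, a hemidesmosome collagen, was higher in basal cells at 7.58 ± 0.70 against 5.44 ± 0.61 in luminal cells (SD, n = 4, difference 2.14 ± 0.32, adjusted p = 0.0322). In this comparison 6 of 7 had an unadjusted p under 0.05 (9.44% of all genes).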

How the data were processed

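Sorted cells gave column-purified RNA, which the NuGEN Ovation V2 kit amplified before hybridisation, per the labels' protocols. The table the authors deposited holds a log2 signal for each probe set and array, and RMA and oligo are named in the submitters' processing notes without a version or settings. Its values lay between 0.695 and 14.3 with like array medians and were taken as log2 signals without further normalization. Scanner files and detection p-values were not used here, so the number of arrays limits the precision and levels of different genes are not compared.

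Of 41345 probe sets, the annotation gave 23521 a single gene, gave 1814 more than 1 and did not list 16010. These gave 22180 genes, the brightest probe set standing for a gene. Entrez identifiers of 23328 probe sets matched the reference gene table (GRCm38.p6), which changed 0 symbols. Testing covered the 20135 genes that exceeded the table's lower quartile (2.98) on at least 2 arrays.

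Each of 12 arrays was put in 1 of 6 groups by its label. A mean per group was fitted with limma 3.58.1 (R 4.3.3; 6 residual and 3.28 prior degrees of freedom), with Benjamini-Hochberg adjustment over all genes within a comparison at 0.05, and the script was tested on simulated data. SE values are moderated, and a fold is 2 to the power of the log2 difference. LY6D+ and LY6D- arrays of a gate come from the same mouse, per the labels. After removal of group means, such pairs correlated at 0.149 in Sca1-high, 0.407 in basal and 0.022 in luminal cells. The reported fit treats arrays as independent, and mouse was a fixed or random block (consensus correlation 0.15) in alternatives. Other alternatives changed the filter, the scaling, the probe set rule, the arrays fitted and the moderation, averaged the arrays of a mouse or left out 1 array.

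The uroplakins, the marker lists and the tests were chosen with earlier results of these data known. Named genes are the members, up to 4 genes per list (those called between gates first, then the brightest), and the genes with the highest Pearson r with a member over 12 arrays (5 for Upk1a, 3 for each other).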

Additional observations from a re-analysis of the deposited data

Results flagged for a closer look

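Upk1b in the basal gate had 1 array far from the other 3. The LY6D+ basal array of mouse 5 read 7.33, where the others read 5.22 to 5.49, and the gap was 0.87 of the gate's range, above Dixon's critical value for 4 arrays. Upk1b in the Sca1-high gate had a second such array, LY6D- of mouse 1, at 4.78 against 4.39 to 4.45, with a ratio of 0.838 but a gap smaller than the spread of Upk1b in the other gates. Chance marks about 1 in 20 such groups, and 15 combinations of gene and gate were examined. The LY6D+ luminal array of mouse 4, at 7.41, was as high as the marked basal array and was not marked, since the luminal arrays were spread widely.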

How the results depend on the processing

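The count of uroplakins called was 1 between basal and luminal cells and 1 between Sca1-high and luminal cells, Upk1a in both. Both counts fell to 0 with mouse as a fixed replicate block (Upk1a -4.10 and -4.41) and with mouse 5 alone, which has the same differences by construction. They also fell to 0 with the 3 other mice alone (-3.82 and -4.23). Without the 3 arrays of mouse 5 that stood apart, the basal count fell to 0 (-3.72). These fits use fewer arrays or residual degrees of freedom, and why the calls were lost was not tested. Over all genes, the reported fit called 84 in basal and 28 in Sca1-high cells against luminal cells. The fixed block called 100 and 104, mouse 5 alone 3 and 13, and the 3 other mice 2 and 0. Without the 3 arrays that stood apart, 10 were called in basal cells. Settings that kept only some mice or left out arrays that stood apart were chosen after seeing the data. Upk1a kept its sign in 26 of 26 alternatives and its call in 22 (basal) and 23 (Sca1-high), and leaving out 1 array kept both counts at 1. Between LY6D- basal and LY6D- luminal cells the count was 0 and ranged from 0 to 1 with 1 array left out: without either LY6D+ Sca1-high array, Upk1a passed (adjusted p = 0.0466). The fixed or random block changed no other count of uroplakins. Of 43 differences of members that were not called, 30 changed sign under at least 1 alternative or were 0 in a fit when rounded to 2 decimals. The other 13 kept their sign, and none of the 30 exceeded 0.49 in the reported fit. Counts over all genes ranged from 2 to 255 around 84 (basal against luminal), 0 to 165 around 28 (Sca1-high against luminal), 0 to 133 around 2 (Sca1-high against basal), 0 to 37 around 6 and 3 to 203 around 12 (LY6D+ and LY6D- basal against luminal), and for LY6D 0 to 17 around 0 in Sca1-high, 0 to 3 around 2 in basal, 0 to 70 around 0 in luminal cells and 0 to 2 around 0 over the gates.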
